A study of Mus musculus with 12 samples.

Results

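The cytosolic ribosome is built from several rRNAs and a large set of small, mostly basic proteins, each encoded by its own gene. The genes described here are the 83 of 17007 rows whose symbol names a protein of the large (Rpl) or small (Rps) subunit of the mouse cytosolic ribosome, together with the acidic stalk proteins Rplp0, Rplp1 and Rplp2 and the laminin receptor protein Rpsa. The large subunit contributed 51 of these genes and the small subunit 32, and 14 of the 83 lie on chromosome 7. Of the 83, 82 reached 0.5 FPKM (fragments per kilobase of exon, scaled to library size) in at least 3 libraries and were tested. The exception was Rpl3l, a paralog of Rpl3 known from skeletal and heart muscle, with 0 to 0.643 FPKM.

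RNA was sequenced from 12 livers or liver tumors in 4 groups of 3 samples. Normal liver (NL) came from wild-type C57BL/6 mice. The other 9 samples came from mice with floxed Rictor and Tsc2 alleles (Rictor fl/fl Tsc2 fl/fl, C57BL/6J background). The livers of these mice received c-MYC, MCL1 and Cre plasmids by hydrodynamic tail vein injection. As a result, c-MYC/MCL1 tumors arose in hepatocytes that had lost Rictor (an essential part of mTOR complex 2) and Tsc2 (a brake on mTOR complex 1). From day 6 after injection these mice were given vehicle, 1 mg/kg/day MLN0128 (INK in the sample names) or 1 mg/kg/day everolimus (EVE), by gavage on 6 days a week for 3 weeks, and they were sacrificed 3.7 weeks after injection, as the labels and methods have it. A passage on the RNA-Seq tumors names 3 days of treatment instead, so how long the drugs had acted is uncertain in every drug comparison here. MLN0128 blocks the catalytic site of mTOR, which both complexes share, whereas everolimus, related to rapamycin, inhibits complex 1. All 3 tumor groups shared the plasmids and deletions, so drug effects were measured only within that background, and normal liver differed from the tumors in genotype and injection as well as in tumor state.

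Ribosomal protein mRNAs are among the most abundant in any growing cell. Most of them start with a C followed by an unbroken run of pyrimidines, the 5′ terminal oligopyrimidine (TOP) tract, and through it their translation depends on mTORC1 by way of LARP1. MYC is known to raise the transcription of ribosomal protein genes. RNA-Seq measured the amount of these mRNAs, not their translation, so the control best known for mTOR was outside this assay.

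The sequences around the annotated starts show what the tract looks like in genes that behave differently below. RefSeq promoter entries (GRCm38.p6) matched 61 of the 83 genes. Within 15 bases on either side of the first listed start, an unbroken run of at least 8 C or T occurred in 25 of the 61 genes (41.0%) and in 11.9% of all 27025 genes with an entry. In the lines that follow, the 30 bases run 5′ to 3′ on the coding strand, the start is the 16th base, and capitals mark the longest C or T run where it has at least 8 bases. Rpl13a, Rplp0, Rps12, Rpl18, Rplp2 and Rpl14 are 6 of the 7 genes that rose furthest in tumors (the other, Rpl3, did not match an entry), Rps6 is the S6 kinase substrate, and Rps27, Rps27l and Rpl36al stood apart from the rest.
Rpl13a, chr7:45128731-45128760, minus strand: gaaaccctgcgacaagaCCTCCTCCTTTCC
Rpl14, chr9:120571502-120571531, plus strand: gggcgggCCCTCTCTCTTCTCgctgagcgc
Rpl18, chr7:45718056-45718085, plus strand: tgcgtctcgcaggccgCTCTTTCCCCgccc
Rplp2, chr7:141447636-141447665, plus strand: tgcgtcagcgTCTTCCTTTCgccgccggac
Rplp0, chr5:115559452-115559481, plus strand: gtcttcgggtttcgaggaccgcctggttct
Rps12, chr10:23787195-23787224, minus strand: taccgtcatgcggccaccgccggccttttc
Rps6, chr4:86857353-86857382, minus strand: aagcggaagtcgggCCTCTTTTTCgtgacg
Rps27, chr3:90213634-90213663, minus strand: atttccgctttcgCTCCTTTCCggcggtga
Rps27l, chr9:66946071-66946100, plus strand: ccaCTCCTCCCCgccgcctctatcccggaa
Rpl36al, chr12:69184053-69184082, minus strand: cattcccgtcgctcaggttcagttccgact
The run covers the annotated start in Rps6, Rps27, Rpl14 and Rplp2, begins just after it in Rpl13a and Rpl18, and lies upstream of it in Rps27l. Rplp0, Rps12 and Rpl36al have no run of that length at the listed start. In Rps12 a run of 7 bases reaches the end of the window and may go on past it. The starts used in these livers were not measured, so a gene without a run here may still carry the tract. The counts and medians given here split genes by the run in this window, not by the tract. Over the 300 bases from 250 before to 50 after the start, the E-box CACGTG, the core sequence bound by MYC, occurred in 5 of the 61 genes (8.20%), against 10.4% of the 10217 tested genes with an entry. The ETS-type motif CCGGAAG, searched on both strands like the E-box (which reads the same on both), occurred in 23 of the 61 (37.7%), against 18.0%. The median log2 change from normal liver to vehicle tumor was 0.86 in the 25 genes with the run and 0.72 in the 35 tested genes without it, and it was 0.78 in the 5 genes with the E-box and 0.77 in the 55 without.

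The libraries held 17141974 to 25155457 reads, recovered from the deposited values. Summed over all its exons, Tsc2 was at 4.50 to 5.32 FPKM in normal livers and 2.01 to 3.96 FPKM in the 9 tumor libraries, and Rictor was at 1.65 to 2.57 and 1.05 to 2.21 FPKM, which overlap. Mcl1 was at 50.2 to 53.9 FPKM in normal livers, 143 to 211 in vehicle tumors, 461 to 1120 with MLN0128 and 235 to 354 with everolimus, and Myc was lower in the tumors, at 0.799 to 3.01 FPKM against 4.01 to 12.2 in normal livers. Whether reads of the c-MYC plasmid were counted in the Myc row was not tested. The libraries MLN0128 replicates 1 and 2 carried Xist at 191 and 155 FPKM and had the Y-linked genes Ddx3y, Uty, Kdm5d and Eif2s3y at 0, and the other 10 libraries showed the reverse. Sex was therefore mixed within MLN0128 only.

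The ribosomal protein genes occupied a much larger part of the transcriptome in tumors than in normal liver. Their summed expression was 22372, 22755 and 21029 FPKM in the 3 normal livers and 38794, 42481 and 32347 FPKM in the 3 vehicle tumors. As a share of recovered reads, which uses no scaling between libraries, the genes took 2.17%, 2.19% and 2.02% in normal liver and 7.16%, 7.89% and 6.09% in vehicle tumors, 3.32 times as much on average. Neither measure overlapped between the groups. The ratio of the summed FPKM was smaller, 1.72. The authors' scaling factors were 0.585 to 0.596 in normal liver and 1.12 to 1.15 in vehicle tumors, and the 10 most abundant genes of a library held 34.2% to 35.4% of its summed FPKM in normal liver and 18.2% to 24% in vehicle tumors.

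The summed level in the treated tumors lay around that of the vehicle tumors. The genes summed to 38230, 51703 and 33101 FPKM with MLN0128 and to 48709, 34649 and 42061 FPKM with everolimus, and both ranges overlapped that of vehicle tumors. Their share of reads was 8.17%, 9.95% and 7.65% with MLN0128 and 8.76%, 6.93% and 7.81% with everolimus, again overlapping. As a share of summed FPKM, MLN0128 tumors (13.8%, 15.6% and 13.1%) lay above all 3 vehicle tumors (11.2%, 12.2% and 10.2%), and everolimus tumors (13.2%, 11.9% and 11.54%) overlapped them. The share held by large subunit genes was 61.2% to 63.1% of the sum in all 12 libraries, a narrow range in all groups.

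**Figure D1:**
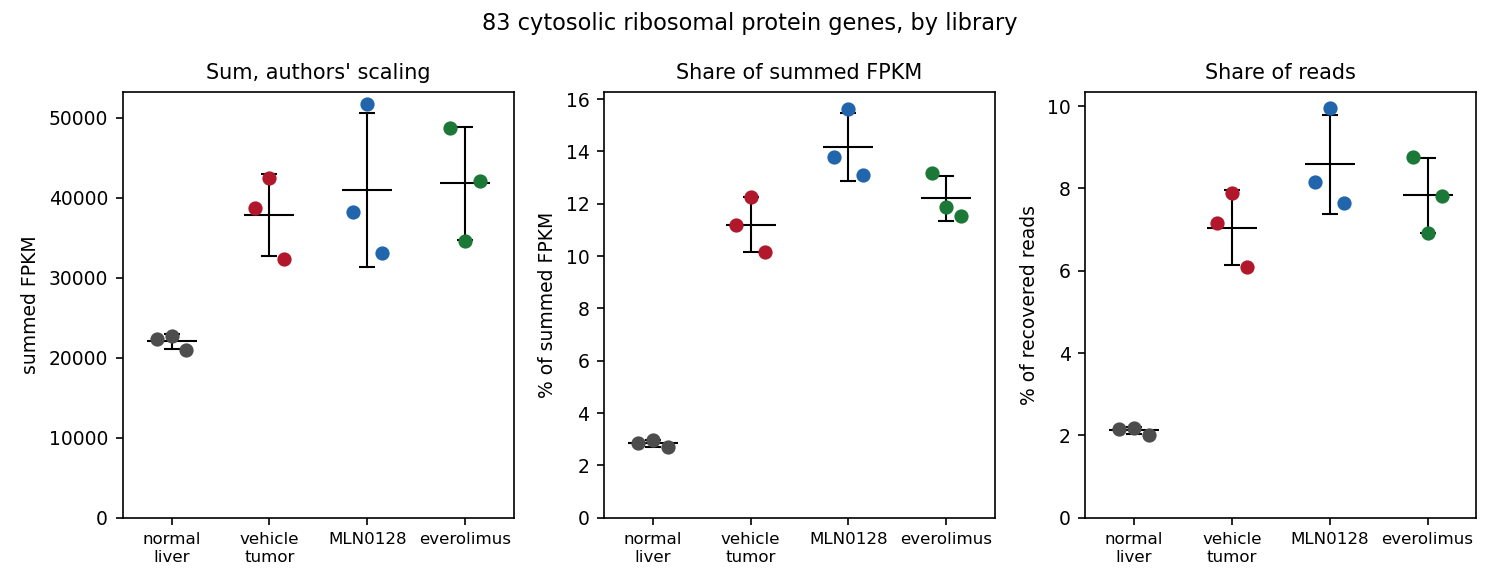
Each point is 1 library, the wide bar is the group mean and the whiskers are ± 1 SD (n = 3); the panels give the summed FPKM of the 83 genes, their percent of the library's summed FPKM and their percent of recovered reads. All 9 tumor libraries sit above all 3 normal livers in every panel, and the treated tumors overlap the vehicle tumors in the panels of the sum and of the reads.

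Within the tumor groups, most of the genes were high or low in the same libraries. MLN0128 replicate 2 was the highest of its group in 78 of the 82 tested genes, everolimus replicate 1 in 72, and vehicle tumor replicate 2 in 67. Vehicle tumor replicate 3 was the lowest in 77 genes, MLN0128 replicate 3 in 76 and everolimus replicate 2 in 80. The median standard deviation within a group on the log2 scale was 0.22 in vehicle tumors, 0.33 with MLN0128 and 0.25 with everolimus, and it became 0.11, 0.11 and 0.086 once the libraries were set to the same median of these genes. In normal livers it was 0.10 and became 0.12, and there replicate 2 was the highest in 38 genes and replicate 3 the lowest in 46. Of the 2 MLN0128 libraries with Xist, replicate 2 was the highest of the group and replicate 1 lay in the middle, and the part of sex was not tested. Setting libraries to the median of these genes removes any shift they share, so a smaller spread follows in part by construction. Counts of highest and lowest over all genes are not given, so a shift of whole libraries cannot be told apart.

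From normal liver to vehicle tumor, 57 of the 82 tested genes rose and 1 fell (limma on log2(FPKM + 1), adjusted p below 0.05), where 36% of all genes tested rose and 33% fell. The median change of the 82 genes was 0.76 on the log2 scale, against 0.06 for all genes tested, and 72 of the 82 had all 3 tumors above all 3 normal livers, as did 39% of all genes, and 1 had all 3 below, as did 35.1%. A change reliably larger than 1.5-fold (limma's treat test) was found for 13 of the 82 genes, all higher, a share near that of all genes, of which 32.7% passed in either direction and 15.9% in the higher direction. The count was 20 without MLN0128 replicate 2, which enters through the shared variance. The share of all genes in that fit was not counted. The rise included both subunits: 34 of 50 large subunit genes and 23 of 32 small subunit genes rose, with medians of 0.74 and 0.82. Bulk RNA cannot tell fewer cells of a type from less RNA per cell, and the cell makeup moved with this comparison. The summed FPKM of 8 hepatocyte markers went from 83034–101897 to 4442–6713, that of 5 genes of dividing cells from 22.6–25.5 to 117–143, that of 8 macrophage markers from 286–367 to 123–180 and that of 7 endothelial markers from 50.3–60.3 to 13.3–19.6, and their part in the result was not tested. Gene by gene, 8 of 8 hepatocyte markers fell and 5 of 5 genes of dividing cells rose, while 5 of 8 macrophage markers fell and 1 rose (Cd68, by 2.31) and 3 of 7 endothelial markers fell. The summed FPKM of 7 stellate or fibroblast markers was 61.3–85.6 and 26.7–61.8, that of 5 cholangiocyte markers 40.2–43.6 and 36.8–92.5. These sums held genes that moved apart: 4 stellate or fibroblast markers rose (Col1a1 by 2.98) and 3 fell (Dcn, -3.35), and 3 of the 4 cholangiocyte markers tested rose (Krt19 by 4.13). The 7 lymphocyte markers summed to no more than 3.08 in any library, with Cd3g and Ms4a1 at 0 in 2 and 3 libraries.

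The size of the rise depended on the scaling. With every library set to the same summed FPKM, the median of the 82 genes was 1.94 and that of all genes moved to 0.80, so the distance between them went from 0.70 to 1.14. In that scaling 80 genes rose, as did 66.1% of all genes, and 79 passed the 1.5-fold test, as did 49.1%. With voom on recovered reads and library totals, the medians were 1.70 and 1.01, and 80 genes rose, as did 61.9% of all genes.

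**Figure D2:**
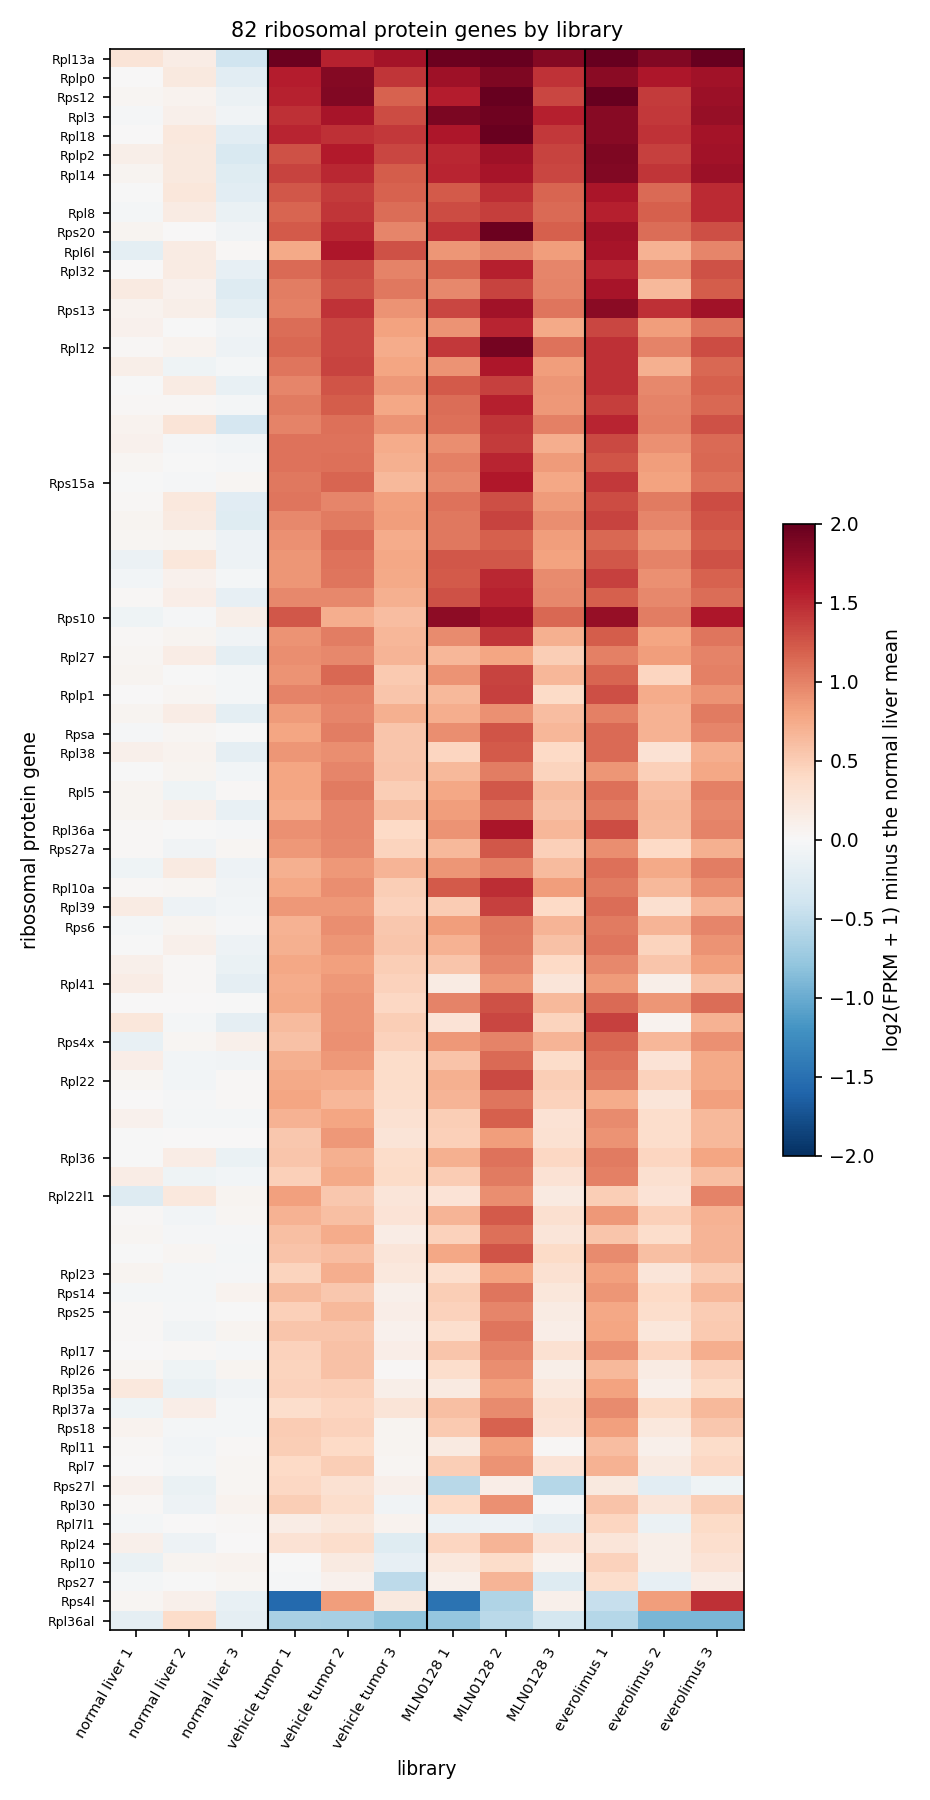
Rows are the 82 tested genes, ordered by their change from normal liver to vehicle tumor, with the genes described in the text labelled; columns are the 12 libraries; color is log2(FPKM + 1) minus the mean of the 3 normal livers. The tumor columns are red for nearly all genes, with Rpl36al blue in all 9 tumor libraries, and MLN0128 replicate 2 and everolimus replicate 1 are darker than their group.

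The stalk recruits translation factors to the ribosome and is formed by a P0 base that carries P1 and P2 dimers. Rplp0, the base, was at 524, 598 and 449 FPKM in normal livers and 1540, 1860 and 1400 FPKM in vehicle tumors, with a log2 change of 1.61 (SE 0.20, adjusted p = 2.34e-05). Rplp2 went from 102, 107 and 75.3 FPKM to 229, 283 and 237 FPKM (1.40, SE 0.18, adjusted p = 3.16e-05). Rplp1 had the highest mean of the 83 genes, at 2050, 2100 and 1990 FPKM in normal livers and 4080, 4120 and 2990 FPKM in vehicle tumors, and changed by 0.85 (SE 0.30, adjusted p = 0.0239). All 3 rose without overlap between the groups, and Rplp0 and Rplp2, but not Rplp1, passed the 1.5-fold test.

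The largest change of all 82 genes was that of Rpl13a, known also for a role in transcript-specific translational silencing. It was at 10.7, 9.82 and 6.44 FPKM in normal livers and 37.3, 27.5 and 30.0 FPKM in vehicle tumors (1.72, SE 0.22, adjusted p = 3.21e-05). This row lay far below the median of the 82 genes, 193 to 230 FPKM in normal livers and 317 to 419 FPKM in vehicle tumors. Whether reads of Rpl13a were placed at other rows was not tested. Rps12 followed Rplp0, with 214, 219 and 191 FPKM against 607, 755 and 470 FPKM (1.53, SE 0.24, adjusted p = 0.000135). Rpl3, whose protein lies close to the peptidyl transferase center, was at 174, 189 and 168 FPKM and then 489, 556 and 439 FPKM (1.47, SE 0.17, adjusted p = 1.17e-05). The other genes past 1.5-fold included Rpl18, Rpl14, Rpl8, Rps20, Rpl32, Rps13 and Rpl6l, with Rplp2; those beyond the highest 3 and the stalk were picked for naming by their result. Rpl6l is annotated as a processed pseudogene and held at most 4.13 FPKM.

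Several of the proteins have known roles in signaling or outside the ribosome. Rps6, the classic substrate of S6 kinase, was at 296, 317 and 301 FPKM in normal livers and 492, 578 and 444 FPKM in vehicle tumors (0.72, SE 0.17, adjusted p = 0.00238). Rpsa changed by 0.79 (SE 0.20, adjusted p = 0.00349), and Rps27a, made as a fusion with ubiquitin, by 0.76 (SE 0.22, adjusted p = 0.00986). Rpl5 and Rpl11 join 5S rRNA in a particle that can bind MDM2 and so restrain the breakdown of p53. Rpl5 went from 165, 150 and 162 FPKM to 276, 326 and 225 FPKM (0.77, SE 0.20, adjusted p = 0.00447). Rpl11 was at 237, 223 and 236 FPKM and at 327, 305 and 240 FPKM (0.31, SE 0.22, adjusted p = 0.217), so its tumors lay above its normal livers, by little in replicate 3, and the change did not pass the test.

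The X chromosome carries 4 of the 83 genes. Rps4x, a small subunit protein gene on the X, was at 321, 364 and 383 FPKM in normal livers and 532, 673 and 487 FPKM in vehicle tumors (0.65, SE 0.19, adjusted p = 0.00817). Rpl36a changed by 0.76 (SE 0.26, adjusted p = 0.0194) and Rpl39 by 0.73 (SE 0.26, adjusted p = 0.0277). Rpl10, which completes the large subunit late in its assembly, was at 462, 528 and 535 FPKM and at 507, 577 and 455 FPKM, a difference of 0.01 (SE 0.17, adjusted p = 0.962). In the MLN0128 group, where replicates 1 and 2 carried Xist and replicate 3 did not, Rps4x was at 645, 709 and 571 FPKM and Rpl10 at 586, 654 and 534 FPKM, inside the range of the other tumor libraries for both genes. The part of sex in these levels was not tested.

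The genes at the low end of the list did not follow the rise. Rpl36al, an autosomal retrocopy of the X-linked Rpl36a, fell from 2.74, 4.49 and 2.76 FPKM to 1.72, 1.68 and 1.43 FPKM (-0.71, SE 0.17, adjusted p = 0.00306), but with every library set to the same summed FPKM it changed by 0.11 in the other direction and with voom by -0.08, neither past the test. It rested on 39 to 75 reads a library. Rps27 was at 337, 346 and 358 FPKM and at 341, 369 and 242 FPKM (-0.15, SE 0.24, adjusted p = 0.598), and it rose, by 1.04 and 0.79, under those same scalings. The median of all genes was 0.80 and 1.01 in them, against 0.06 in the authors' scaling. Rpl36al lay below that median in each scaling, and Rps27 lay above it only with the same summed FPKM. Rps4l, annotated as a transcribed processed pseudogene, ran from 10.8 to 94.9 FPKM over the 12 libraries with no order by group, and its change of -0.18 had an SE of 0.61.

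The order of the genes by level was largely kept. Across the 82 genes, Pearson's r between group means of log2(FPKM + 1) was 0.98 for normal liver and vehicle tumor and 0.995 to 0.997 between tumor groups; this is across genes, which are not independent replicates and share gene length and library between the groups. After Rplp1, the highest means were those of Rplp0 and Rpl36 (805, 896 and 737 FPKM in normal livers and 1190, 1330 and 1050 FPKM in vehicle tumors), and the lowest tested were those of Rpl24, Rpl6l and Rpl36al. Rpl24, whose product is a core protein, was listed at 0.792 to 2.37 FPKM, on 11 to 54 reads a library. Many ribosomal protein genes have near-identical processed copies in the mouse genome, so the level of a single row is uncertain where reads could be placed at a copy.

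Departures from the shared movement were measured by setting each library to the same median log2 FPKM of the 82 genes, a scaling chosen after the values were seen, in which the members' median difference is near 0 by construction. In vehicle tumors against normal liver, 11 genes then lay above and 18 below the others (adjusted p below 0.05). For all genes tested the shares in this scaling were 15.8% and 51.9%. Among the 11 were Rpl13a (0.96, SE 0.20), Rpl6l, Rplp0 (0.78, SE 0.15), Rps12 (0.70, SE 0.14), Rpl18, Rpl3, Rplp2 (0.58, SE 0.16), Rpl14, Rps20 and Rpl8. Those below the others included Rpl36al (-1.34, SE 0.20), Rps27 (-0.98, SE 0.15), Rpl10 (-0.82, SE 0.16), Rpl7l1 (-0.66, SE 0.18), Rps27l (-0.55, SE 0.16), Rpl7 (-0.52, SE 0.14) and Rpl11 (-0.51, SE 0.15), with Rpl30, Rps18, Rpl37a, Rpl26, Rpl35a, Rpl17, Rps25, Rps14 and Rpl23 between -0.57 and -0.36. Leaving out each library in turn gave 9 to 12 genes above and 12 to 20 below, with the shares of all genes not counted.

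**Figure D3:**
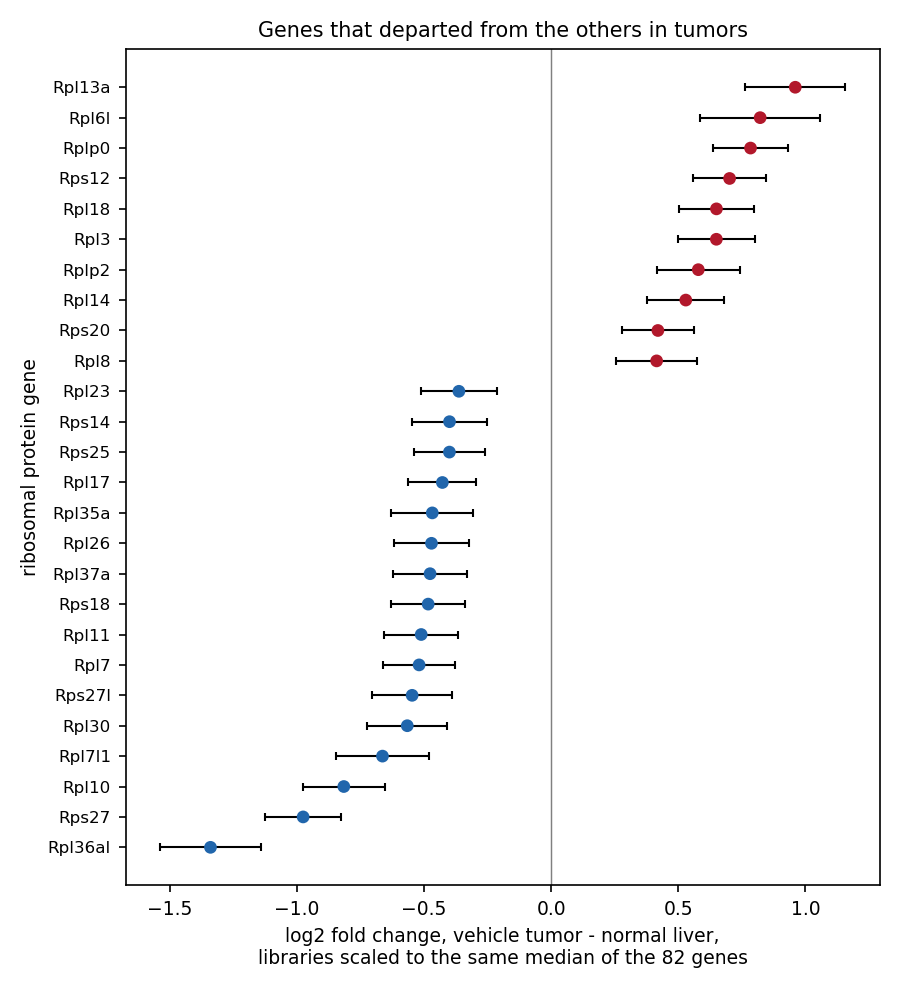
Points are genes named in the text that departed from the others in vehicle tumors, as log2 change from normal liver after setting each library to the same median of the 82 genes; whiskers are ± 1 SE (n = 3 libraries a group). Rpl36al and Rps27 lie lowest at -1.34 and -0.98, and Rpl13a highest at 0.96.

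Few of the genes were called against vehicle tumors with either drug in the authors' scaling. With MLN0128 1 gene rose and 1 fell (limma, adjusted p below 0.05), where 14.9% of all genes rose and 17.1% fell. The median change was 0.12, against -0.01 for all genes. None of the 82 passed the 1.5-fold test, against 2.13% of all genes, and 4 had an unadjusted p below 0.05, against 42.9%. The median was -0.04 without MLN0128 replicate 2 and 0.26 without MLN0128 replicate 3, so the direction rested on single libraries. With every library set to the same summed FPKM the median was 0.36, that of all genes 0.17, and 35 of the 82 genes rose, against 25.4% of all genes. With voom on recovered reads the medians were 0.27 and 0.13, and 11 genes rose, against 22.4%. No setting tried gave more than 2 genes that fell. With MLN0128 the summed markers of cholangiocytes (10.3–28.1 FPKM) and macrophages (65.7–121) lay below those of all vehicle tumors and those of lymphocytes (1.22–3.08 against 0.990–1.07) above, and their part was not tested. The sums of hepatocyte (2080–4751), endothelial (10.3–14.2), stellate or fibroblast (43.0–71.9) and dividing cell (70.2–160.0) markers overlapped those of vehicle tumors. Gene by gene, 3 of 8 hepatocyte markers fell (Ttr, -1.38) and 1 rose (Cyp2e1, by 2.83). Of the other lists, 3 of 8 macrophage, 3 of the 4 tested cholangiocyte, 1 of 7 endothelial and 1 of 5 dividing cell markers fell, and none rose.

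With everolimus limma called none of the 82 genes in either direction, against 3.78% of all genes that rose and 6.05% that fell, and 3 had an unadjusted p below 0.05, against 26.8%. By voom on recovered reads the count was also 0. The median change was 0.14, against 0.03 for all genes, and it ran from 0.02 without vehicle tumor replicate 3 to 0.26 without everolimus replicate 2. The 1.5-fold test called 0 of the 82, and 0.604% of all genes. The highest changes were those of Rps4l (0.79), Rps10 and Rps13 and the lowest those of Rps27l, Rpl41 (-0.18, SE 0.24) and Rpl6l, none past the test. Cell markers moved with everolimus too, and their part was not tested. The sums of cholangiocyte (17.2–61.8 FPKM) and macrophage (86.4–209) markers overlapped those of vehicle tumors. Gene by gene, 3 of the 4 cholangiocyte markers tested fell (Krt19, -4.04), as did 1 of 8 macrophage markers (Cd68, -1.56). Of 8 hepatocyte markers, 1 rose and 1 fell. Between the drugs, limma called 0 of the 82 genes, against 3.99% of all genes higher and 5.54% lower with MLN0128, with 1 unadjusted p below 0.05, against 27%, and a median of -0.03, as for all genes; with libraries set to the same summed FPKM the medians were 0.23 and 0.16. The 1.5-fold test called 0 of the 82 here as well, and 0.0417% of all genes. Both drug comparisons share the vehicle tumors.

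These results bound the changes rather than exclude them. The median half-width of a 95% interval was 0.45 on the log2 scale. For MLN0128 the interval lay within 1.5-fold in either direction for 36 of the 82 genes and within 2-fold for 79. For everolimus these counts were 40 and 80, and between the drugs they were 58 and 81. The same counts were not made for all genes, so they do not set these genes apart from others. For Rps6 the 95% interval was -0.23 to 0.50 with MLN0128 and -0.19 to 0.54 with everolimus, from 544, 636 and 486 FPKM and from 624, 487 and 597 FPKM. For Rplp0 it was -0.38 to 0.50 with MLN0128 and -0.35 to 0.53 with everolimus, and for Rpl5 it was -0.32 to 0.55 and -0.31 to 0.56.

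**Figure D4:**
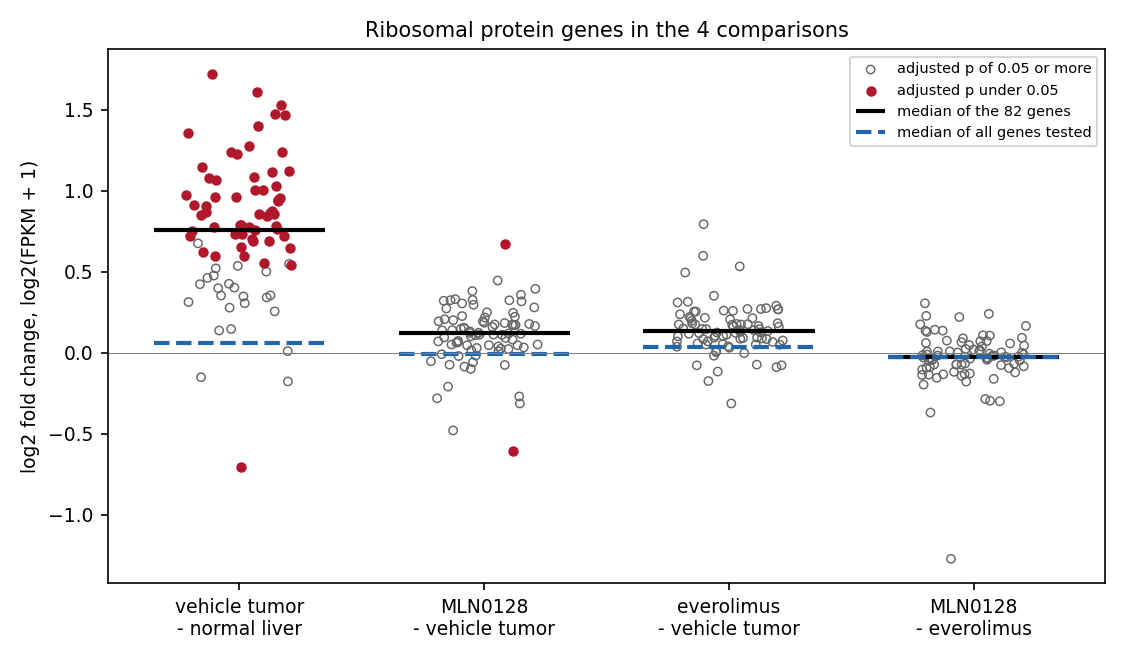
Each circle is 1 of the 82 tested genes, plotted as its log2 fold change in each of the 4 comparisons; filled red circles have an adjusted p below 0.05, the black line is the median of the 82 and the dashed blue line the median of all genes tested. The first comparison is shifted to a median of 0.76, and the drug comparisons have medians of 0.12, 0.14 and -0.03 with 2 filled circles, both for MLN0128.

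The gene that fell with MLN0128 was Rps27l, a paralog of Rps27 and a known target of p53. It was at 550, 510 and 443 FPKM in vehicle tumors and at 279, 451 and 277 FPKM with MLN0128. The log2 change was -0.61 (SE 0.21, adjusted p = 0.0412), with MLN0128 replicate 2 above the lowest vehicle tumor. Its call was lost in 12 of 21 alternatives, over which the adjusted p ran from 0.00508 to 0.155 and the change from -0.84 to -0.37. Leaving out any single normal liver or vehicle tumor, MLN0128 replicate 1 or 3, or everolimus replicate 3 was enough. Relative to the other ribosomal protein genes the fall was -0.76 (SE 0.16, adjusted p = 0.00504), and Rps27l was the only gene of the 82 past the threshold in that scaling, in which 12.8% of all genes lay lower and 5.26% higher. With everolimus Rps27l was at 472, 354 and 387 FPKM, a change of -0.31 (SE 0.21, adjusted p = 0.362), or -0.41 relative to the others (SE 0.16, adjusted p = 0.209). In that scaling 0 of the 82 genes were called with everolimus, where 0.708% of all genes lay higher and 2.65% lower, and 0 between the drugs, where 0.445% lay higher and 0.806% lower. The difference between the drugs did not pass the test (-0.30, SE 0.21, adjusted p = 0.392).

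The ratio of Rps27l to its own partner separated the vehicle tumors from each of the other groups, and both genes moved it. Rps27 averaged 347 FPKM in normal livers, 317 in vehicle tumors, 406 with MLN0128 and 380 with everolimus. Relative to the other ribosomal protein genes, both lay below in vehicle tumors against normal liver, Rps27 further than Rps27l. Rps27l as a percent of Rps27, both in FPKM, was 130%, 108% and 118% in normal livers and 161%, 138% and 183% in vehicle tumors. It was 74.8%, 81.3% and 95.8% with MLN0128 and 106%, 114% and 101% with everolimus. MLN0128 lay below vehicle tumors by 0.94 on the log2 scale, everolimus by 0.58, and MLN0128 lay below everolimus by 0.35, each with no overlap of the 3 libraries. An exact two-sided permutation test gave p = 0.1 for each of these, the smallest value possible with 3 against 3. Everolimus overlapped normal liver in this percentage. The MLN0128 library without Xist, replicate 3, had 95.8%, below every vehicle tumor, and the part of sex was not tested. The coding sequences of the pair are alike, so reads could be placed at the wrong member.

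The other paralogs behaved differently from each other. Rpl7l1, a nucleolar protein related to Rpl7, was at 43.9, 46.6 and 41.4 FPKM in vehicle tumors and at 36.3, 36.9 and 34.7 FPKM with MLN0128, without overlap, as 23.4% of all genes had all 3 below, though its change of -0.28 (SE 0.14, adjusted p = 0.135) did not pass the test. With everolimus it was at 53.7, 36.6 and 51.9 FPKM. Rpl22l1, which can stand in for Rpl22, was at 25.6, 35.6 and 32.0 FPKM in normal livers and 55.3, 45 and 36.8 FPKM in vehicle tumors (0.54, SE 0.24, adjusted p = 0.066), while Rpl22 rose by 0.62 (SE 0.21, adjusted p = 0.0218). The log2 ratio of Rpl22l1 to Rpl22 was lower with MLN0128 than in vehicle tumors by 0.30 and that of Rpl7l1 to Rpl7 by 0.54, both without overlap and both at p = 0.1 by the exact permutation test. The ratio of Rpl36al to Rpl36a in vehicle tumors was 0.292 times that in normal livers, without overlap, and it overlapped between MLN0128 and vehicle tumors. Everolimus tumors lay below vehicle tumors in this ratio without overlap, with a log2 difference of -0.37 (p = 0.1 by the exact permutation test). Rpl36al rested on 39 to 75 reads a library.

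**Figure D5:**
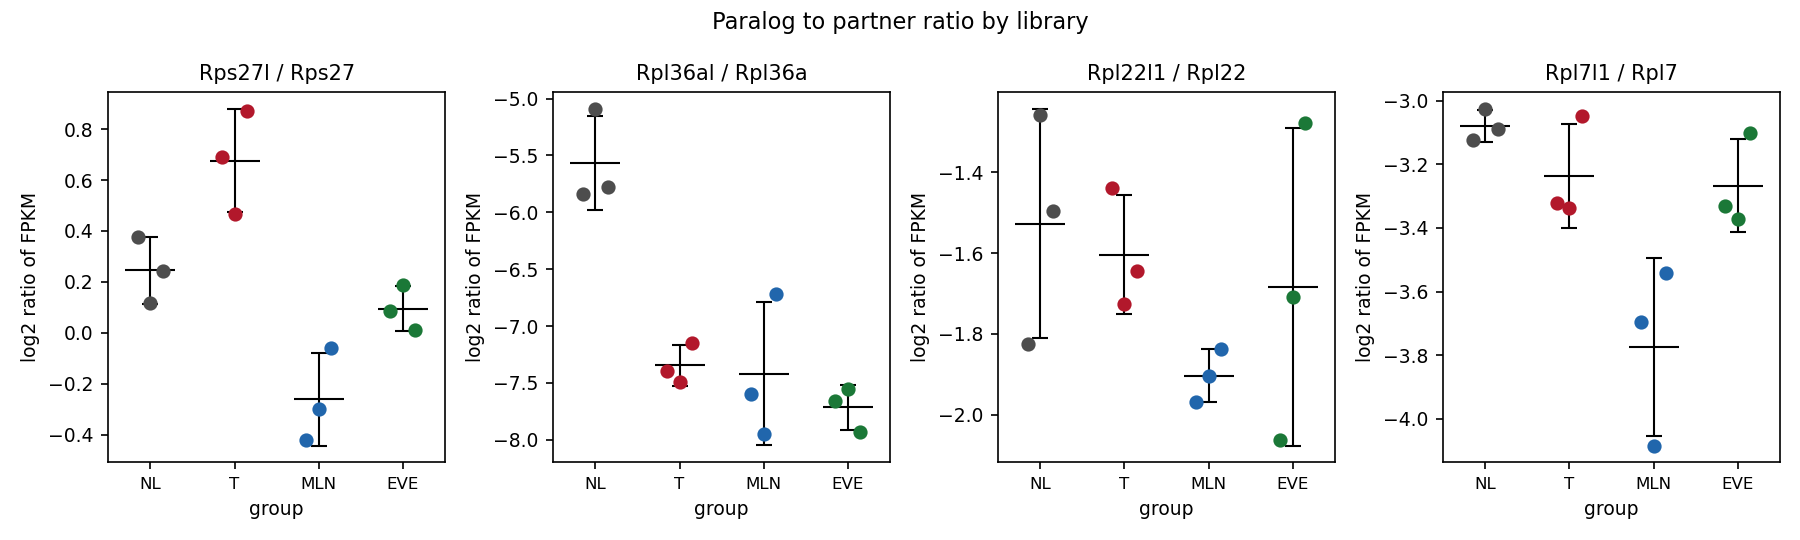
Points are libraries, wide bars group means and whiskers ± 1 SD (n = 3) of the log2 ratio of a paralog's FPKM to its partner's, in normal liver (NL), vehicle tumors (T), MLN0128 (MLN) and everolimus (EVE); the vertical axes do not start at 0. For Rps27l over Rps27 the 3 MLN0128 points lie lowest and the 3 vehicle tumors highest.

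The gene that rose with MLN0128 was Rps10, at 4.64, 2.94 and 2.66 FPKM in vehicle tumors and 7.21, 6.58 and 4.29 FPKM with MLN0128 (0.67, SE 0.23, adjusted p = 0.0404). The groups overlapped, and the call was lost in 8 of 21 alternatives, with an adjusted p of 0.00411 to 0.147, among them leaving out any normal liver, MLN0128 replicate 1 or 2, or vehicle tumor replicate 2 or 3; with everolimus the values were 6.96, 3.86 and 6.29 FPKM (0.60, SE 0.23, adjusted p = 0.114). The next largest rises with MLN0128 were those of Rpl10a (0.45, SE 0.19, adjusted p = 0.0942) and Rpl12 (0.39, SE 0.22, adjusted p = 0.199). At the other end, Rps4l and Rpl6l, both pseudogenes, changed by -0.48 and -0.31 without passing the test. Between the drugs, the lowest values with MLN0128 after Rps4l were those of Rpl7l1 (-0.37, SE 0.14, adjusted p = 0.106) and Rpl27 (-0.30, SE 0.15, adjusted p = 0.215), the gene with all 3 MLN0128 tumors below all 3 everolimus tumors, as 15.2% of all genes had, and the highest were those of Rpl10a (0.30), Rpl36al (0.24) and Rpl24 (0.23).

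Rps13 was the only gene whose 3 everolimus tumors lay above all 3 vehicle tumors, where 17.6% of all genes did so. It was at 116, 159 and 108 FPKM in vehicle tumors and 204, 160 and 186 FPKM with everolimus (0.53, SE 0.19, adjusted p = 0.0977). A processed copy of it, Rps13-ps1, was at 233, 119 and 200 FPKM in vehicle tumors, 142, 4.97 and 96.3 FPKM with MLN0128 and 4.82, 2.76 and 3.51 FPKM with everolimus. Added together, reads of both rows, in RPM (reads scaled to the library size the authors used), came to 437, 492 and 398 in vehicle tumors and 552, 432 and 502 with everolimus, and the groups then overlapped. A copy of Rps15a, Rps15a-ps7, was also lowest with everolimus, with 106, 79.1 and 105 FPKM in vehicle tumors, 30.4, 5.75 and 45.1 FPKM with MLN0128 and 3.92, 1.60 and 1.95 FPKM with everolimus. Rps15a itself was at 90.8, 98.0 and 67.7 FPKM in vehicle tumors and 116, 75.8 and 93.1 FPKM with everolimus, and the copy held at most 8.84% of the reads of the pair. The third of the most abundant copies, Rpl38-ps2, followed its parent in all groups, with 4.37% to 7.28% of the reads of the pair. In all, the 82 rows of ribosomal protein pseudogenes summed to 0.888% to 2.02% of the FPKM of the 83 genes, and from normal liver to vehicle tumor 46 of the 80 that were tested rose and 2 fell, against 36% and 33% of all genes. Both Rps13-ps1 and Rps15a-ps7 were low in the same 4 libraries, all 3 of everolimus and MLN0128 replicate 2. The cause was not tested, and a difference of these mice or libraries other than treatment cannot be told apart from everolimus.

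Of 5 ribosomal proteins outside the symbol rule, 2 rose in vehicle tumors, against 36% of all genes, with a median of 0.45. Rack1, the scaffold on the small subunit head, rose by 1.19 in vehicle tumors (SE 0.19, adjusted p = 0.000149), from 113, 122 and 106 FPKM to 254, 305 and 229 FPKM. Fau also rose, and Rps3a1 was among those that did not pass the test. None of the 5 was called with either drug. Of all genes, 14.9% rose and 17.1% fell with MLN0128, and 3.78% rose and 6.05% fell with everolimus.

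Among 16 other mRNAs known to carry a TOP tract, 10 rose and 0 fell in vehicle tumors, against 36% and 33% of all genes, with a median of 0.83. Npm1, which works in ribosome assembly and export, rose by 2.41 (SE 0.20, adjusted p = 9.87e-07) and Eef1g, a subunit of the elongation factor 1 complex, by 2.07 (SE 0.18, adjusted p = 1.09e-06). With MLN0128 2 of the 16 rose, a share no higher than the 14.9% of all genes. Eif4b, an RNA helicase cofactor in initiation, was at 127, 144 and 130 FPKM in vehicle tumors and 225, 238 and 189 FPKM with MLN0128 (0.69, SE 0.16, adjusted p = 0.00617). Eef2, the translocation factor, rose by 0.60 (SE 0.21, adjusted p = 0.049). With everolimus Nap1l1, a histone chaperone, rose by 0.46 (SE 0.11, adjusted p = 0.0303), where 3.78% of all genes rose. With either drug 0 of the 16 fell, against 17.1% of all genes with MLN0128 and 6.05% with everolimus.

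Of 11 genes of the mTORC1 branch that controls these mRNAs, 4 rose and 1 fell in vehicle tumors, where 36% of all genes rose and 33% fell, so the share that rose was that of the background. Larp1, which binds the TOP tract, rose by 1.26 (SE 0.16, adjusted p = 3.3e-05), and Eif4ebp1, the inhibitor of cap binding that mTORC1 inactivates, by 1.5 (SE 0.23, adjusted p = 9.94e-05), with Eif4e and Mlst8 also higher and Pdcd4 lower. With MLN0128 2 of the 11 fell, near the 17.1% of all genes, and none rose, against 14.9%. Eif4ebp1 was at 81.1, 90.4 and 87.0 FPKM in vehicle tumors and 33.8, 37.3 and 36.0 FPKM with MLN0128 (-1.25, SE 0.23, adjusted p = 0.00206). Eif4e, the cap-binding protein, was at 25.5, 28.6 and 23.4 FPKM and at 15.9, 15 and 16.5 FPKM (-0.67, SE 0.14, adjusted p = 0.00358). With everolimus none of the 11 was called (Eif4ebp1 -0.36, SE 0.23, adjusted p = 0.338), where 3.78% of all genes rose and 6.05% fell. Both genes were lower with MLN0128 than with everolimus, by -0.89 (SE 0.23, adjusted p = 0.0339) and -0.62 (SE 0.14, adjusted p = 0.0197), as was Rheb (-0.37, SE 0.10, adjusted p = 0.0455). Of all genes, 5.54% were lower and 3.99% higher in that comparison.

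Of 11 chaperones and maturation factors of ribosomal proteins, 9 rose and 2 fell in vehicle tumors, against 36% and 33% of all genes, with a median of 0.98. Rrp12, needed for the export of both subunits, went from 1.85, 3.02 and 2 FPKM to 14.1, 16.9 and 16.1 FPKM (2.36, SE 0.19, adjusted p = 7.95e-07), and Grwd1, the chaperone of Rpl3, from 4.33, 7.54 and 4.61 FPKM to 28.5, 31.9 and 32.0 FPKM (2.32, SE 0.17, adjusted p = 3.26e-07). The genes that fell were Bccip, which escorts Rpl23 (-0.96, SE 0.13, adjusted p = 4.65e-05), and Sbds, which releases Eif6 from new large subunits (-0.48, SE 0.10, adjusted p = 0.00116). With MLN0128 none of the 11 was called, where 14.9% of all genes rose and 17.1% fell. With everolimus Sbds was lower (-0.35, SE 0.10, adjusted p = 0.0484), where 6.05% of all genes fell.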

How the data were processed

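The values are those of 1 table of FPKM that the authors deposited, with 17007 gene symbols and 12 libraries. Per the study's methods and the labels, libraries were made from total RNA and reads were counted per gene. The submitters' processing notes name GRCm38 and FastQC 0.11.7, and the aligner is not given in the sources used here. With the exon lengths of GENCODE M21, 98.2% to 98.8% of values under 20 reads came out as whole reads within 0.1, where chance gives 20%. This gave 17141974 to 25155457 reads a library and the authors' scaling factors. In 22 rows the symbol had been turned into a date, and 0 columns of other samples were present.

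From the FPKM, log2(FPKM + 1) was fitted in R 4.3.3 with limma 3.58.1, all 12 libraries in 1 model with a variance trend (residual df 8), for the 14397 genes that reached 0.5 FPKM in 3 or more libraries. The vehicle tumors were compared with normal livers and with the tumors under either drug, and the drugs with each other, in 4 comparisons. Fold changes are on the log2(FPKM + 1) scale, which understates the change of low genes. Adjusted p-values are Benjamini-Hochberg over all genes of a comparison, with 0.05 as threshold. The treat test used a fold of 1.5. The fit was tested on simulated data. Figures were drawn with matplotlib 3.10.9.

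The gene set, the lists of other genes and markers, and the rule for named genes were chosen with earlier results of these data known. Named were the 3 highest and 3 lowest changes of each comparison, paralogs with their partners, genes with set roles, the ends of the range of levels, and genes below the filter. Groups came from the labels. The labels give 3 samples a group, and neither they nor the methods say that each tumor sample came from its own mouse. Promoter sequences are from RefSeq. Some genes that enter the counts are not reported here by name. Alternatives were another pseudocount, filter, scaling, voom on recovered reads, no trend, the 6 libraries of 2 groups, a replicate block, and leaving out each library.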

Additional observations from a re-analysis of the deposited data

How the results depend on the processing

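The number of ribosomal protein genes called from normal liver to vehicle tumor by the 1.5-fold test, 13, was 79 with libraries set to the same summed FPKM, 78 with voom on recovered reads, 22 with only the 6 libraries of the 2 groups and 45 with a fold of 1.2. Of all genes, 32.7% passed in the main fit and 49.1% with the same sum. The median change was 1.94 with the same sum and 1.70 with voom, and that of all genes was 0.80 and 1.01. The gene that fell was then not called (0 in both), and with the same sum the ratio of summed FPKM went from 1.72 to 3.93. The sign changed for Rpl36al with libraries set to the same sum (0.11), and for Rps27 with that scaling (1.04) and with voom (0.79). These scalings moved all genes, and Rpl36al lay below the median of all genes in each. Rps27 lay above that median only with the same sum. With MLN0128 against vehicle, 35 genes rose and 0 fell with libraries set to the same sum, where 25.4% of all genes rose. With voom 11 rose, where 22.4% of all genes did, and with only the 6 libraries 0 rose and 0 fell. Between the drugs, 1 gene was higher with MLN0128 with libraries set to the same sum. Where a count here stands without the share of all genes, that share was not counted, so the count cannot be set against other genes. The cause of these differences was not tested.

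Leaving out each library in turn gave, from normal liver to vehicle tumor, 9 to 20 genes past 1.5-fold (20 without MLN0128 replicate 2), 46 to 64 that rose, 1 that fell, and a median of 0.66 to 0.88. For MLN0128 against vehicle it gave 0 to 3 genes that rose, 0 to 2 that fell and a median of -0.04 to 0.26. For everolimus it gave 0 to 1 that rose, 0 that fell and a median of 0.02 to 0.26, and between the drugs 0 higher, 0 to 1 lower and -0.20 to 0.12. With the members' median as scaling it gave 1 to 2 genes below the others with MLN0128. A fit with the replicate number as a block was made because the labels give all groups the same numbers. The correlations of same-numbered libraries were -0.29 to 0.15. Differently numbered libraries were not compared, so this check cannot decide whether the numbers pair the samples. With the block 56 genes rose in vehicle tumors and 12 passed 1.5-fold, and with MLN0128 1 rose and 0 fell. Shares of all genes were not counted for the fits of this paragraph, so these counts cannot be set against other genes.

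Genes at a few FPKM (Rpl24, Rpl36al, Rpl6l, Rps10) rest on 4 to 473 reads a library, so small differences in them were not detectable at this depth.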
